A study of Mus musculus with 41 samples.

Results

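The 7 genes described here are studied as blood or effusion biomarkers of mesothelioma, or that act beside them. They were *Spp1*, which encodes osteopontin, its receptor *Cd44*, *Has2*, which encodes a hyaluronan synthase, *Efemp1*, which encodes fibulin-3, *Thbs2*, which encodes thrombospondin-2, *Hmgb1*, which encodes a chromatin protein that can be secreted, and *Muc16*, which encodes the CA125 antigen. They were selected on earlier results of the comparison of BNC with NC lines, in which *Spp1* was lower in BNC lines. The values of that comparison are therefore a description of these genes and carry no test. Of the 7 genes, 6 had a row among the 27197 genes of the count table, and *Muc16* was not analysed here. The filter on low counts kept 5 of the 6, and 12376 genes in all. *Thbs2* did not pass it.

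The data are RNA sequencing counts of mouse mesothelioma cell lines and tumors. Cre was delivered to the pleural space of mice by an adenovirus in which the CMV promoter, which is not restricted to mesothelium, drives the recombinase. The 3 BNC lines (JB81, JB91, and JB97) are Bap1-/-;Nf2-/-;Cdkn2ab-/-, and the 3 NC lines (JB84, JB87, and JB93) are Nf2-/-;Cdkn2ab-/-. Both groups thus lack Nf2 and Cdkn2ab and differ in Bap1, and each line is a culture grown from a tumor. The other 9 libraries were taken to be the tumor samples, of which the labels describe 5 as Bap1-/-;Nf2-/-;Cdkn2ab-/- and 4 as Nf2-/-;Cdkn2ab-/-. Which library has which genotype was not known here, so tumors are given by the code of their library and are not compared by genotype.

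Osteopontin is a secreted phosphoprotein that binds integrins through an RGD motif and also binds CD44. CD44 is a cell surface glycoprotein whose main ligand is hyaluronan, the polysaccharide that mesothelial cells release in large amounts, and HAS2 makes hyaluronan at the plasma membrane. Soluble osteopontin, fibulin-3, CA125, HMGB1, and hyaluronan itself are measured in blood or pleural fluid of patients with mesothelioma, with macrophages and fibroblasts as other known sources of several of them.

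Library size was between 12377675 and 23936922 counts in the lines and between 8158740 and 21851974 in the tumors. JB81 and JB91 were close to each other, since 5 of 10511 genes with at least 100 counts differed more than 2-fold, against 1474 of 10631 between JB81 and JB97. JB84 and JB93 were as close, with 8 of 10545 genes. The counts of both pairs still differed by more than sampling noise, with a chi-square per gene of 16.3 and 24.1. This cannot tell separate cultures from the same culture prepared again, which was not tested. They were kept as separate lines because the study names them so. *Bap1* had 40.3, 41.4, and 36.9 CPM (reads per 1000000 counts of the scaled library) in the BNC lines and 57.1, 56.8, and 60.3 CPM in the NC lines, with a log2 fold change of -0.57 (SE 0.13, adjusted p = 0.039, edgeR). These are counts over the whole gene, including exons that stay after deletion. *Nf2* had a mean of 95 CPM (SD 21) over the BNC lines and of 99.6 CPM (SD 10.1) over the NC lines. Among the tumors, B1 had a scaling factor of 0.43. Its summed level of 4 muscle markers was 30600 CPM, that of B19 was 26200 CPM, and that of B45 was 20500 CPM, with *Acta1*, skeletal muscle actin, the most abundant. B2 held 44600 CPM of 3 lung epithelial markers, with *Scgb1a1*, a secretoglobin of club cells, the most abundant. All levels below are CPM scaled by TMM over the 15 libraries.

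*Spp1* was lower in BNC lines and had the largest log2 fold change, by size, of the 5 tested genes in the fit of all 6 lines without covariates. This order was not stable, since *Efemp1* had -8.25 without JB97 and -4.62 with the library prefix as a covariate, and *Has2* had 5.77 without JB87. Among BNC lines JB81 had 16.4 CPM, JB91 15.4 CPM, and JB97 14.2 CPM, and among NC lines JB84 had 190 CPM, JB87 135 CPM, and JB93 182 CPM. All BNC lines lay close together and below all NC lines, and neither set was spread widely. The means were 15.3 ± 1.1 CPM (SD, n = 3) in BNC and 169 ± 29.3 CPM (SD, n = 3) in NC lines, and each SD includes a close pair. The log2 fold change was -3.48 (SE 0.2), which is 11.2-fold lower in BNC lines. The library names of the lines bear 2 numeric prefixes whose meaning is not given in the sources used here, and *Spp1* was lower in BNC lines by a similar amount within each. The difference in log2(CPM + 1) was -3.21 for JB81 against JB84 and JB87 and -3.53 for JB91 and JB97 against JB93. The lines of each close pair, JB81 with JB91 and JB84 with JB93, bear different prefixes. These differences are therefore not independent of each other. For *Efemp1* these differences were -7.83 and -3.77, and for *Has2* 2.23 and 4.28.

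The *Spp1* promoter is shown because this gene separates the groups with the least spread within each, and that of *Efemp1* because its level separates the BNC lines from each other. Both are the 250 bases before the gene start in RefSeq, build GRCm38.p6, on the plus strand, at chr5:104434861-104435110 for *Spp1* and chr11:28852955-28853204 for *Efemp1*. Capitals mark matches, on either strand, to 5 motifs: ACCACA of RUNX factors, TGANTCA of AP-1, CATTCC of TEAD factors, the CCAAT box, and the TATA box TATAAA.
Spp1: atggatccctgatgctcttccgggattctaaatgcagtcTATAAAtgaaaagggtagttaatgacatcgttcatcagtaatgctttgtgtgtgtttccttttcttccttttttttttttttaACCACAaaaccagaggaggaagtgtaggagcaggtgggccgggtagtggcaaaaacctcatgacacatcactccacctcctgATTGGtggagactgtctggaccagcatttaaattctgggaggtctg
Efemp1: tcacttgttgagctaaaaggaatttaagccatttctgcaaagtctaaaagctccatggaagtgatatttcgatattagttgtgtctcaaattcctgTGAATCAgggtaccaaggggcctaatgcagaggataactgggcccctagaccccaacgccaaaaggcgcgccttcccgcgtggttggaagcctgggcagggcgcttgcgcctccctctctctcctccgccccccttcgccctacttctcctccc
The *Spp1* window held a RUNX match from -128 to -123 and a CCAAT match on the minus strand from -46 to -42, counted back from the gene start. It also held a match to TATAAA from -211 to -206, far upstream of where a TATA box lies. The *Efemp1* window held an AP-1 match from -154 to -148, which reads as the motif on both strands. Of 32851 such windows, 14% held the RUNX letters, 33.8% the CCAAT box, 12.4% TATAAA, 6.75% the AP-1 letters, and 12.6% the TEAD letters. The window of *Cd44* held none of the 5 motifs, that of *Thbs2* held 2 CCAAT matches and 1 TATAAA match on the minus strand, and that of *Hmgb1* held 3 CCAAT matches. No motif overlapped another. These matches describe letters and were not tied to binding.

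*Cd44* was higher in BNC lines, unlike *Spp1*, which encodes its ligand osteopontin. JB81 had 964 CPM, JB91 943 CPM, and JB97 477 CPM, while JB84 had 241 CPM, JB87 446 CPM, and JB93 238 CPM. The lowest BNC line lay just above the highest NC line, so the groups did not overlap but came close. The log2 fold change was 1.35 (SE 0.39).

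*Has2* was read at 26.7, 27.8, and 24.9 CPM in JB81, JB91, and JB97. In the NC lines it was 0.567 CPM in JB84, 21.1 CPM in JB87, and 0.407 CPM in JB93. The 3 BNC lines were alike, whereas the NC lines fell into a low pair and JB87, which lay just under the BNC lines. The log2 fold change of 1.84 (SE 1.41) thus rested on JB84 and JB93, which had 9 counts each. Without JB87 it was 5.77. The antisense gene *Has2os* overlaps *Has2* and had 4 to 13 counts in each line, and since the strand setting of the counting is not given in the sources used here, reads in the overlap cannot be told apart.

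*Efemp1* separated the lines in another way. It was nearly silent in JB81 (2.11 CPM) and JB91 (2.41 CPM), but stood at 655 CPM in JB97, within the NC range of 619 CPM in JB84, 643 CPM in JB93, and 810 CPM in JB87. The log2 fold change was -1.71 (SE 1.95), and -8.25 without JB97. Markers of mesothelium followed it in part. *Msln*, which encodes mesothelin, was at 0.207 CPM in JB81 and 0.415 CPM in JB91, against 224 CPM in JB97 and 844 to 2020 CPM in NC lines. *Upk3b* and *Pdpn*, named after their values were seen, were at most 2.32 CPM in JB81 and JB91 and at least 110 CPM in the other 4 lines. Others did not have this pattern. The keratin genes *Krt8* and *Krt18* were at 7.21 and 0.951 CPM in JB97, against at least 197 and 55.3 CPM in NC lines, and *Lrrn4* was at 0.944 CPM in JB84 and 1.04 CPM in JB93, where *Efemp1* was high. The summed level of the 9 mesothelial markers was 127 to 667 CPM in BNC lines and 2160 to 3020 CPM in NC lines, with *Calb2* at 0 in every line, while *Wt1* was at 123 CPM in both JB81 and JB91. The part of this difference in the *Efemp1* values was not tested.

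*Thbs2* was hardly read in the lines. It had 1 count in JB81, 0 in JB91, 53 in JB97, 5 in JB84, 45 in JB87, and 3 in JB93, with no more than 3.47 CPM in any line. The groups overlapped, and JB97 and JB87 held most of the reads.

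*Hmgb1* had the smallest difference of the 5 tested genes. It stood at 73.1, 64.3, and 80.8 CPM in JB81, JB91, and JB97, and at 36.1, 68.4, and 39.9 CPM in JB84, JB87, and JB93. JB87 lay among the BNC lines, so the groups overlapped, and the log2 fold change was 0.58 (SE 0.27). Processed pseudogenes of *Hmgb1* are nearly identical to it in sequence, so reads could be split or lost and its level is uncertain.

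**Figure D1:**
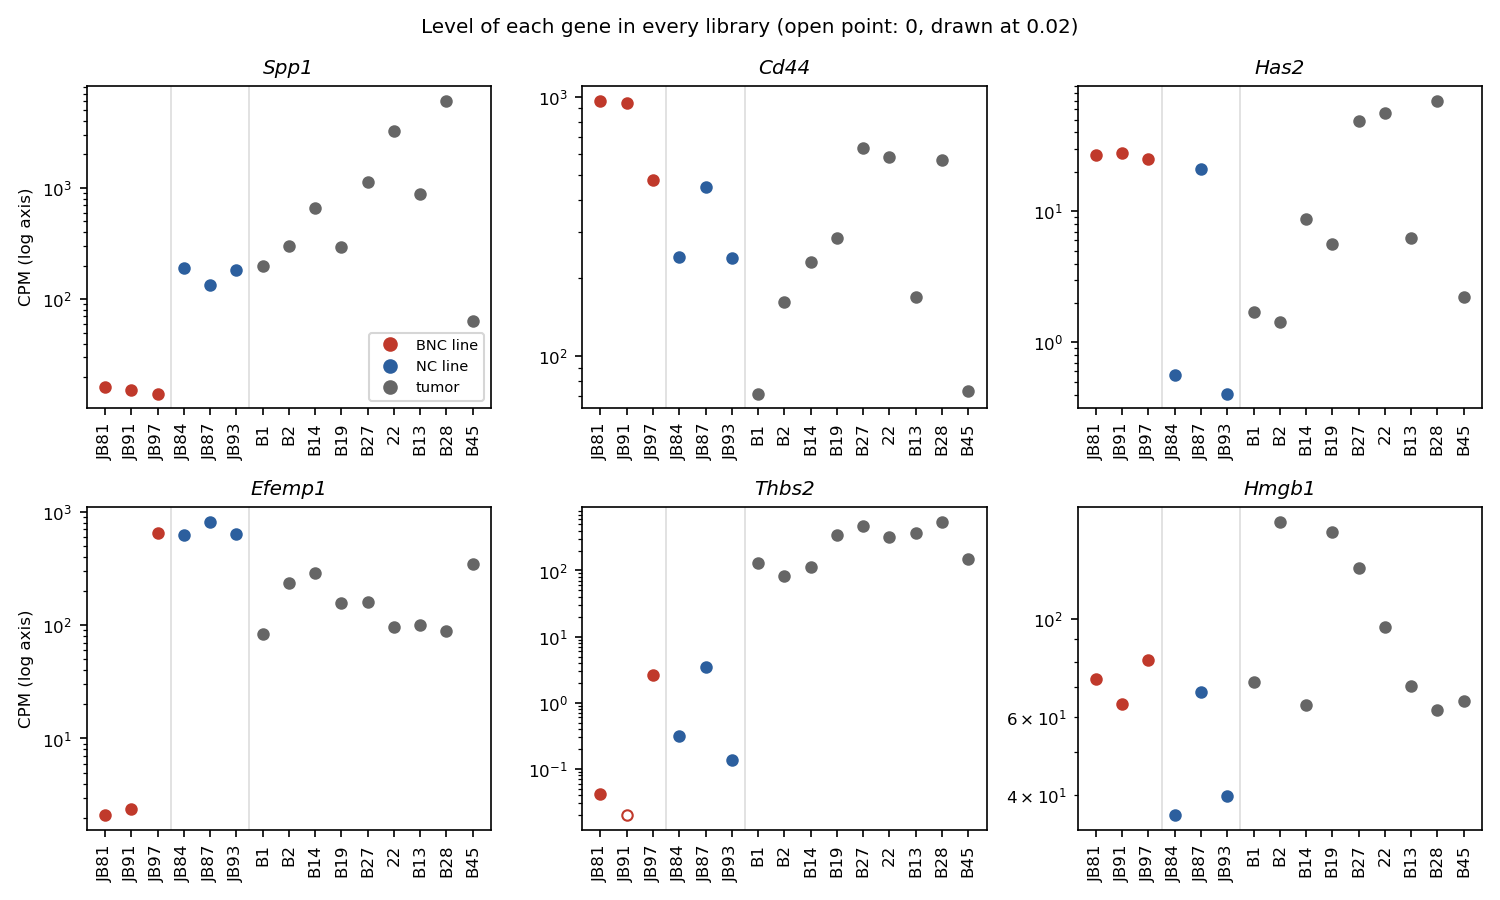
Level of the 6 genes with a row in the table, in CPM on a log axis, with 1 point for each BNC line (red), NC line (blue), and tumor (gray) and an open point for a value of 0. *Spp1* lies at 14.2 to 16.4 CPM in BNC lines and 135 to 190 CPM in NC lines, *Efemp1* is low in JB81 and JB91 only among the lines, and *Thbs2* reaches 82.5 CPM or more in every tumor.

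JB97 and JB87 are the lines outside the close pairs, and they were alike in all these genes but 1. Their difference in log2(CPM + 1), JB97 minus JB87, was -3.16 for *Spp1* and between -0.31 and 0.24 for *Cd44*, *Efemp1*, *Thbs2*, *Hmgb1*, and *Has2*. The contrasts of *Cd44* and *Has2* therefore came mainly from the other 4 lines, which are 2 pairs of near-alike cultures.

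Counted over the lines, 3 of the 6 genes did not overlap between BNC and NC, with *Spp1* lower and *Cd44* and *Has2* higher in BNC. Of all tested genes, 19.9% were lower in every BNC line and 21.5% were higher in every BNC line. At an adjusted p under 0.05 edgeR called 1 of the 5 tested genes, *Spp1*, where 8.45% of all genes were called lower and 5.78% higher in BNC lines. It was also called at the threshold of the study, adjusted p under 0.01 and more than 2-fold, which 1.1% of all genes passed. DESeq2 called 2 of 5 genes, where 19.2% of all genes were called. Its 5 genes were not those of edgeR, since it gave *Efemp1* no p-value and included *Thbs2*. EdgeR called 0 members with each close pair summed into 1 line, and 0 with a replicate block in which JB97 was numbered 2. Both settings left 0 calls among all genes. Since the genes were chosen on this contrast, nothing is read from these counts. Scaling by library size in place of TMM moved the median log2 fold change of all genes from -0.0023 to -0.144 in edgeR. The direction of the 5 genes tested by edgeR was the same.

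Levels can be set side by side only per length of transcript. Per kilobase of exon, *Cd44* had a mean of 117 CPM and *Efemp1* of 108 CPM in BNC lines, but the latter spanned the whole range from silent to high, so their order is not fixed. *Hmgb1* followed at 14.5, *Spp1* at 9.31, *Has2* at 6.25, and *Thbs2* at 0.128 CPM per kilobase. In NC lines the order was *Efemp1* at 339, *Spp1* at 102, *Cd44* at 45.5, *Hmgb1* at 9.58, *Has2* at 1.74, and *Thbs2* at 0.187 CPM per kilobase, where *Has2* and *Thbs2* overlap. By their medians over the tumors, *Spp1* came first at 404 CPM per kilobase, before *Efemp1* at 76.7, *Thbs2* at 46.2, *Cd44* at 34, *Hmgb1* at 14.3, and *Has2* at 1.47.

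The genes around these members were taken from 8 lists with 65 genes, none of them a member. Of the 43 tested, 5 were higher and 3 were lower in BNC lines at an adjusted p under 0.05 (quasi-likelihood test of edgeR, adjusted by Benjamini-Hochberg over all genes), which is 18.6% of them beside 14.2% of all tested genes. By edgeR 0 of the 43 passed the threshold of the study, and 16 had an unadjusted p under 0.05, as had 35.6% of all tested genes. Their median log2 fold change was 0.41, and 20 of the 43 did not overlap between the groups, as did 41.4% of all tested genes. DESeq2 called 15 of 58 list genes at an adjusted p under 0.05, beside 19.2% of all genes. At the threshold of the study it called 11, beside 9.8% of all genes. These totals count every gene with a DESeq2 p-value, including genes to which it gave no adjusted p. None of the 8 calls held without JB81, without JB91, without JB84, or without JB93, and without JB97 those of *Vcan*, *Cd47*, and *Cxcl12* were lost as well (adjusted p = 0.0583, 0.0526, and 0.0551, edgeR). Summing each close pair into 1 line gave 0 calls among all genes and 0 in the lists, where 8 genes had an unadjusted p under 0.05 and the smallest adjusted p was 0.306. Without JB97 and without JB87 the lists held 13 and 24 calls among 45 tested genes, where 25.4% and 51.9% of all genes were called.

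Among 9 integrin chains that form osteopontin receptors, 7 were tested and 1 was called. *Itgb1*, the beta-1 chain and the most abundant per length in the lines, had 2190, 2140, and 1420 CPM in BNC lines and 1050, 995, and 994 CPM in NC lines. This was a log2 fold change of 0.91 (SE 0.23, adjusted p = 0.0486). The call was also lost with scaling by library size (adjusted p = 0.0667, edgeR), with no filter beyond 1 count (0.0599), and with at least 10 counts in every line (0.0585). *Itgav*, the alpha-v chain, had 268 to 468 CPM in BNC and 413 to 517 CPM in NC lines and did not pass the test (adjusted p = 0.218). The 4 relatives of osteopontin, *Ibsp*, *Dmp1*, *Dspp*, and *Mepe*, which lie beside it on chromosome 5, had at most 1 count in any line and were not tested. In the tumors *Ibsp* ranged from 0 to 31.8 CPM and *Dmp1*, the most abundant of them in the lines, from 0.0511 to 4.01 CPM.

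Of 14 genes of hyaluronan synthesis, breakdown, and binding, 9 were tested and 1 was called. *Vcan*, which encodes the hyaluronan-binding proteoglycan versican, had 734, 732, and 984 CPM in BNC lines and 227, 446, and 217 CPM in NC lines, a log2 fold change of 1.44 (SE 0.33, adjusted p = 0.0404). *Cemip*, which encodes a protein needed for hyaluronan degradation, was the most abundant of the list per length. It stood at 2350, 2360, and 861 CPM in BNC lines and at 10.8, 212, and 10 CPM in NC lines, which did not overlap, but it did not pass edgeR's test (log2 fold change 4.58, SE 1.43, adjusted p = 0.0799). DESeq2 called *Cemip* (adjusted p = 0.000195). Of the 2 other synthases, *Has3* was at 0.154 to 2.49 CPM in the lines and *Has1* had no count in a BNC line and 4 to 18 counts in NC lines (adjusted p = 0.0059, DESeq2). *Has2* was thus the synthase with the most reads in the BNC lines and in JB87.

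Of 10 genes that link CD44 to the cytoskeleton or cleave it or osteopontin, 7 were tested and 1 was called. *Ezr*, which encodes ezrin, a linker of CD44 to actin, had 400, 416, and 492 CPM in BNC lines and 778, 1240, and 829 CPM in NC lines. It was lower in BNC lines by a log2 fold change of -1.15 (SE 0.23, adjusted p = 0.0288). The sheddases *Adam10* and *Adam17* and the linkers *Msn* and *Rdx* did not pass the test, with log2 fold changes between -0.5 and 0.43. The proteases *Mmp3* and *Mmp14* differed more but did not pass edgeR's test either. *Mmp3* had a log2 fold change of -6.85 (SE 1.85, adjusted p = 0.0585), with at most 2 counts in a BNC line and 12, 145, and 12 counts in NC lines. *Mmp14* had 378, 402, and 313 CPM in BNC and 102, 292, and 117 CPM in NC lines (log2 fold change 1.08, SE 0.43, adjusted p = 0.132).

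Of the other fibulins, 5 of 6 were tested and *Fbln5* was called. It had 181, 180, and 149 CPM in BNC lines and 26.8, 71.1, and 28.4 CPM in NC lines, a log2 fold change of 2 (SE 0.42, adjusted p = 0.0341), and of 2.62 without JB87. *Fbln2*, the most abundant of them per length, overlapped between the groups (1210, 1310, and 2370 CPM in BNC lines against 694, 1550, and 795 CPM in NC lines). In *Fbln5* JB97 lay near JB81 and JB91, unlike in *Efemp1*.

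Of 6 thrombospondins and their receptors, 3 were tested and 2 were called. *Thbs3* had 205 CPM in JB81 and 214 CPM in JB91 but 6.21 CPM in JB97, against 1.81 to 2.86 CPM in NC lines, with a log2 fold change of 6 (SE 1.33, adjusted p = 0.038). *Cd47*, which encodes a thrombospondin receptor known as a signal against phagocytosis, had 100, 100, and 95 CPM in BNC lines and 349, 160, and 316 CPM in NC lines. It was lower in BNC lines, with a log2 fold change of -1.5 (SE 0.31, adjusted p = 0.0318). *Thbs1*, the most abundant of the list per length, had 299 to 814 CPM in BNC and 118 to 381 CPM in NC lines and did not pass (adjusted p = 0.233).

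Of 8 genes of the HMGB family and of receptors and partners of HMGB1, 7 were tested and 2 were called. *Cxcl12*, a chemokine that forms a complex with HMGB1, had 1980, 1970, and 1580 CPM in BNC lines and 9.13, 125, and 8.33 CPM in NC lines. The log2 fold change was 5.27 (SE 1.27, adjusted p = 0.0454), whereas *Cxcr4*, its receptor, had at most 0.3 CPM in any line. Without JB87 the log2 fold change of *Cxcl12* was 7.72. *Havcr2*, which encodes TIM-3, a receptor on leukocytes that binds HMGB1, was low in all lines, with 0.0413 to 0.25 CPM in BNC and 1.77 to 5.25 CPM in NC lines (log2 fold change -4.7, SE 0.77, adjusted p = 0.0196, and -5.56 without JB97). *Hmgb2* and *Hmgb3* did not overlap between the groups but did not pass edgeR's test (adjusted p = 0.154 and 0.0911). DESeq2 called *Hmgb3* (adjusted p = 0.0373) but not *Hmgb2* (adjusted p = 0.0641).

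Among 8 other mesothelioma biomarkers, edgeR called 0 of the 5 tested genes. *Sdc1*, which encodes syndecan-1, and *Txn1*, which encodes thioredoxin, had an unadjusted p under 0.05 (0.00823 and 0.0477, edgeR), and DESeq2 called *Sdc1* (adjusted p = 0.0076). *Msln* had a log2 fold change of -4.47 (SE 2.38, adjusted p = 0.224), with JB97 between the other BNC lines and the NC lines. *Txn1*, the most abundant of them per length, had 285 to 405 CPM in BNC and 423 to 444 CPM in NC lines (log2 fold change -0.42, SE 0.17, adjusted p = 0.136).

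**Figure D2:**
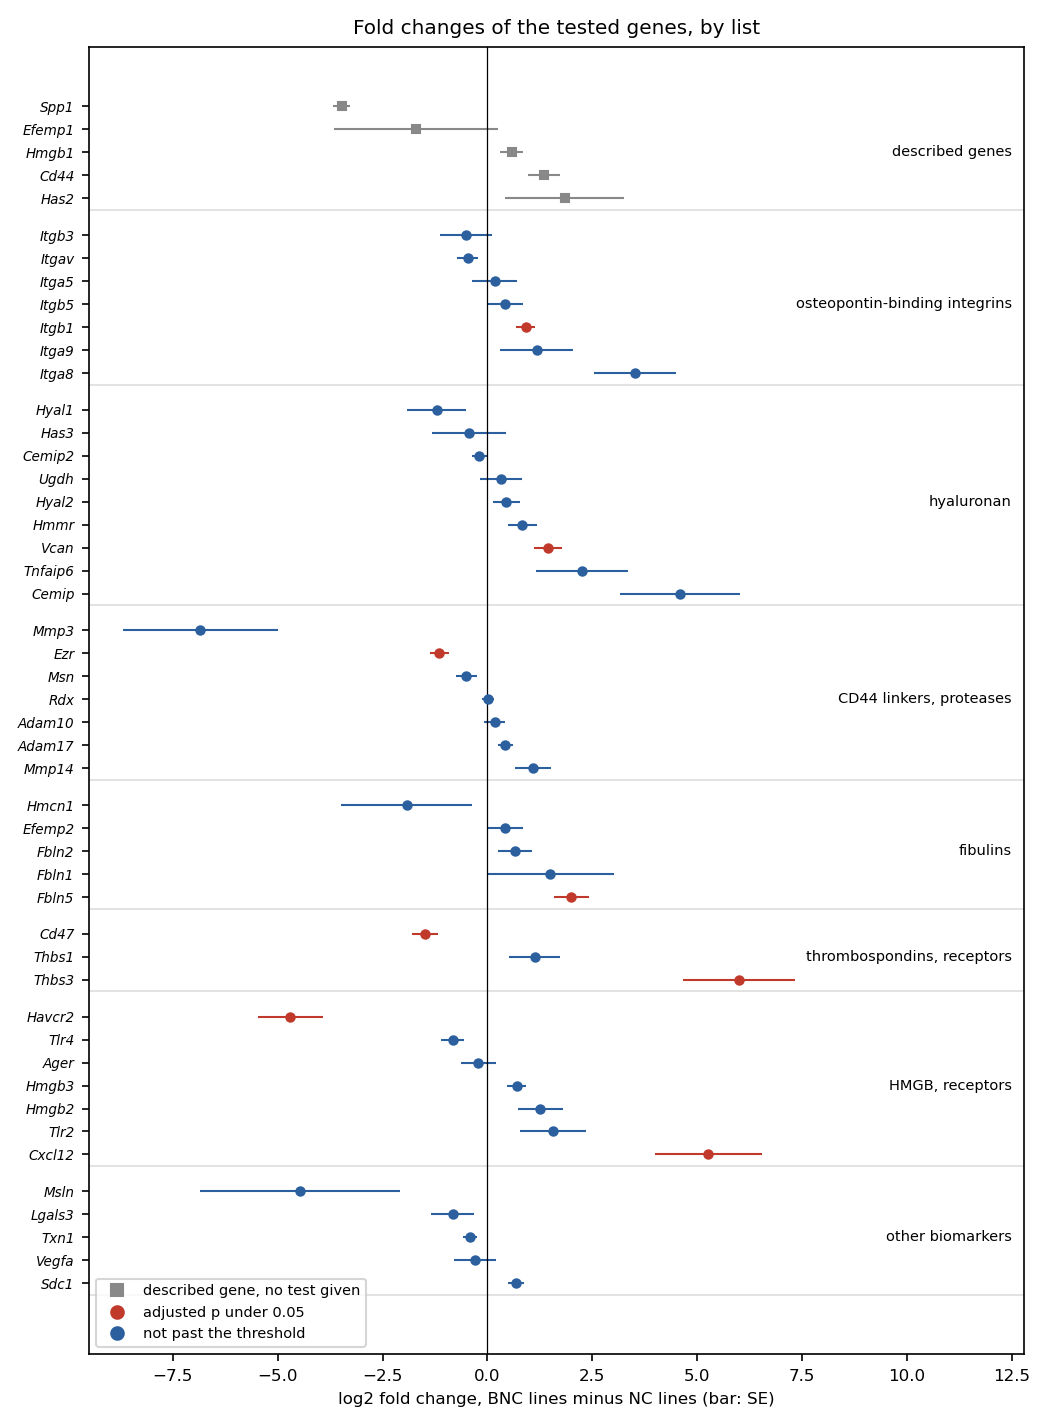
Log2 fold change of BNC against NC lines (horizontal axis, bars are SE) for the 5 tested members (gray squares) and the 43 tested list genes, red where the adjusted p was under 0.05 and blue elsewhere. The red points are *Itgb1*, *Vcan*, *Ezr*, *Fbln5*, *Cd47*, *Thbs3*, *Havcr2*, and *Cxcl12*, and *Spp1* lies at -3.48 with a short bar.

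In the tumors *Spp1* covered a far wider range than in the lines. It stood at 199 CPM in B1, 298 CPM in B2, 665 CPM in B14, 297 CPM in B19, 1120 CPM in B27, 3220 CPM in tumor 22, 890 CPM in B13, 6090 CPM in B28, and 63.6 CPM in B45. In 8 of the 9 tumors it was above every line, and B45 lay between the BNC and the NC lines. B1 was only just above JB84 (190 CPM) and had a scaling factor of 0.43. By library size alone B1 lay below every NC line. In bulk tumor tissue fewer cells of a type and less RNA per cell cannot be told apart. The tumor libraries also share a name prefix that no line has, so tumor and prefix cannot be told apart.

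Other members differed in how tumors stood to lines. *Thbs2* was at 82.5 to 538 CPM (median 324) in the tumors, and all 9 were above every line. *Cd44* was at 71.6 to 632 CPM (median 230), with none above every line and 5 below every line. *Efemp1* was at 83.6 to 345 CPM (median 156), and every tumor lay between the 2 silent lines and the other 4. *Hmgb1* was at 62.2 to 165 CPM (median 71.9), with 4 tumors above every line, and *Has2* at 1.43 to 70 CPM (median 6.24), with 3 above every line.

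Markers of leukocytes and of several other cell types were read in the tumors and hardly in the lines. The 10 macrophage markers summed to 2330 to 9660 CPM in the tumors, against 5.31 to 44.8 CPM in BNC and 3.4 to 5.4 CPM in NC lines, and *C1qa*, *C1qb*, and *C1qc* were at 0 in every line. *Lyz2*, the lysozyme gene and the most abundant of them, made up most of the value in JB81 (34.8 CPM) and JB91 (38.8 CPM), but 1.15 CPM in JB97, where *Cd68* had 3.25 CPM. *Ptprc*, the pan-leukocyte marker, had at most 0.0772 CPM in a line and 80.2 to 219 CPM in the tumors. The fibroblast markers overlapped between lines and tumors through *Col1a1*, with 655 to 6350 CPM in the lines, while *Lum*, named after its values were seen, had at most 0.0415 CPM in a line and at least 90.9 CPM in a tumor. Of the other lists, T cell markers summed to 0 CPM in all lines and 2.6 to 208 CPM in tumors, B cell markers to at most 1.13 CPM in lines and 2.64 to 173 CPM in tumors, and endothelial markers to 1.41 to 57.3 CPM in lines, mostly *Kdr* in NC lines, and 71 to 558 CPM in tumors. The part of the leukocyte, fibroblast, T cell, B cell, and endothelial markers in the tumor levels of *Thbs2* and *Spp1* was not tested.

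**Figure D3:**
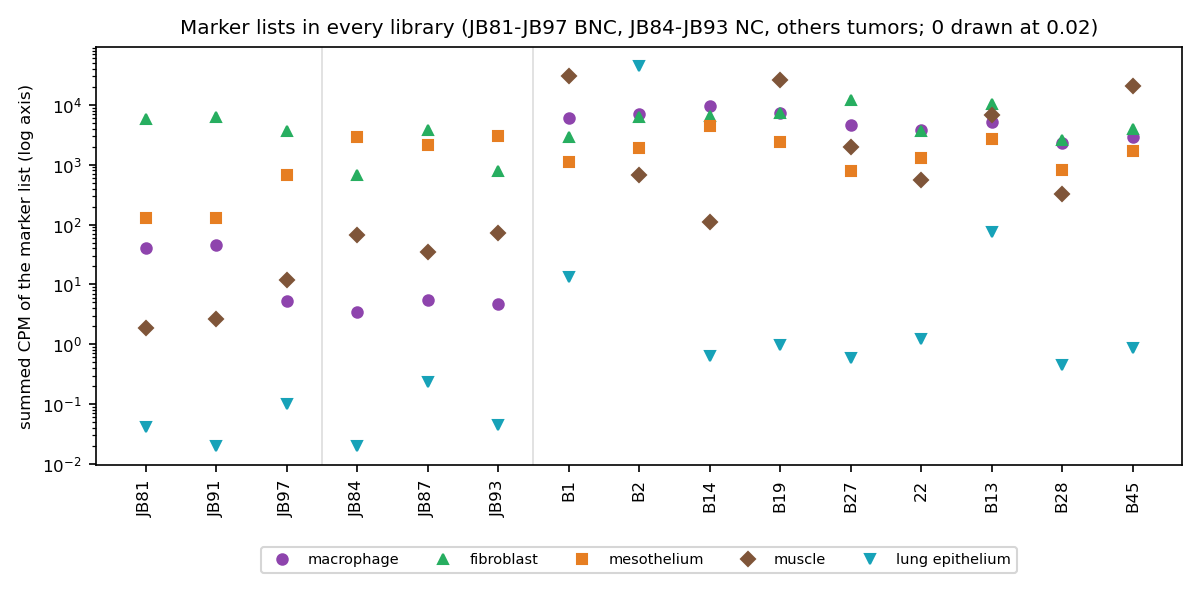
Summed CPM of 5 marker lists (log axis) in every library, with 1 symbol per list. Macrophage markers reach 2330 CPM or more in every tumor and 44.8 CPM at most in a line, muscle markers are highest in B1, B19, and B45, lung epithelial markers are highest in B2, and mesothelial markers are lowest in JB81 and JB91.

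Since macrophages are a known source of osteopontin, each member was set against a macrophage score, the mean log2(CPM + 1) of the 10 markers, over the 9 tumors. Pearson's r was -0.209 for *Spp1* (exact permutation p = 0.589, adjusted over 6 relations p = 0.722), and Spearman's rho was -0.3 (exact permutation p = 0.437, adjusted p = 0.613). B28, with the highest *Spp1*, had the lowest summed macrophage level, 2330 CPM, and B14, with the highest, 9660 CPM, had 665 CPM of *Spp1*. Without B14 and B28, whose scores lay farthest from the median, r was 0.02. The sign changed to 0.25 when libraries were scaled by size alone, so no direction is given. For the other members r was between -0.481 for *Thbs2* and 0.263 for *Efemp1*, and 0 of 6 relations passed at an adjusted or an unadjusted p under 0.05. Without the 3 muscle-rich tumors r was -0.676 for *Spp1* (n = 6, exact permutation p = 0.138, adjusted p = 0.165) and rho was -0.886 (exact permutation p = 0.0333, adjusted p = 0.1). Against the score of the 4 muscle markers *Spp1* had r = -0.713 and rho = -0.733 (n = 9, exact permutation p = 0.031 and 0.0311, adjusted over 6 relations p = 0.186 and 0.187), and r = -0.837 without B14 and B45.

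The same 3 tumors, B27, tumor 22, and B28, had the highest *Spp1*, the highest *Cd44*, and the highest *Has2*. *Cd44* was 632, 584, and 570 CPM there and at most 286 CPM in the other 6. *Has2* was 48.9, 56, and 70 CPM there and at most 8.72 CPM in the other 6, a gap that sets them apart. *Spp1* had no such gap, with 1120 CPM in B27 and 890 CPM in B13. Over all 9 tumors the 3 pairs of these genes had an adjusted p under 0.05 by Pearson's r, but 0 of the 15 pairs of members had one by rho (exact permutation tests). Since the same 3 tumors lie at the top of each pair, no relation is read from r over all 9. Within the other 6 tumors r was 0.689 for *Spp1* and *Cd44*, 0.676 for *Spp1* and *Has2*, and 0.714 for *Cd44* and *Has2* (exact permutation p = 0.119, 0.156, and 0.154, adjusted over 3 pairs p = 0.156 for each), with rho of 0.543, 0.543, and 0.657. These 6 tumors were set by the levels of the same genes, and they include the muscle-rich B1, B19, and B45. No relation is therefore read from these values. The remaining 12 pairs of members gave no adjusted p under 0.05 over the 15 pairs, the smallest being 0.0868. These pairs were chosen after the values had been seen. In B27, tumor 22, and B28 macrophage markers summed to 4640, 3740, and 2330 CPM, T cell markers to 208, 6.18, and 2.6 CPM, and muscle markers to 1940, 550, and 326 CPM. The part of these markers in the levels shared by the 3 tumors was not tested.

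**Figure D4:**
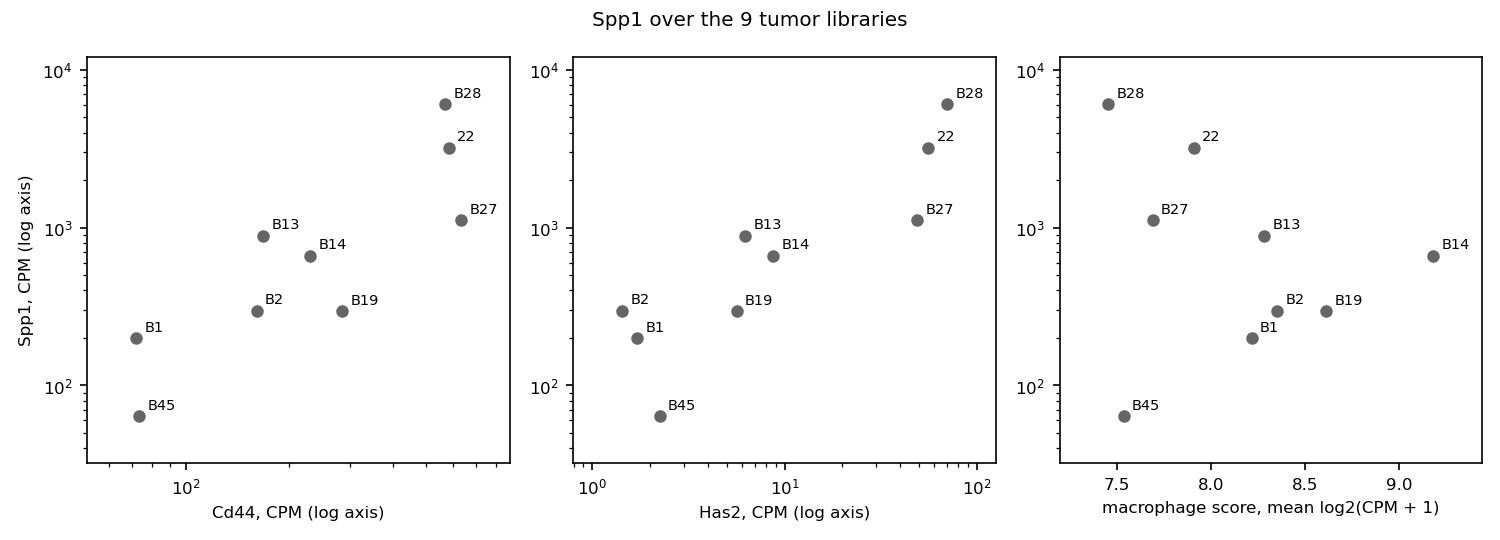
*Spp1* in CPM (vertical, log axis) in the 9 tumors against *Cd44* and *Has2* in CPM (log axes) and against the macrophage score. B27, tumor 22, and B28 lie at the top right of the first and second panel, with *Has2* at 48.9 to 70 CPM, and B28 lies at the top left of the third.

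The 5 genes whose log2(CPM + 1) followed *Spp1* most closely over the 9 tumors, among 11869 genes with a mean above 5 CPM, were *Mex3a* (r = 0.975), *Kif18b* (r = 0.97), *Bard1* (r = 0.965), *Cdc25c* (r = 0.964), and *Tes* (r = 0.963). Their rho was between 0.883 and 0.95. *Kif18b* encodes a mitotic kinesin, *Cdc25c* a phosphatase of mitotic entry, *Bard1* the partner of BRCA1, *Mex3a* an RNA-binding protein, and *Tes* a focal adhesion protein. The points share 1 name prefix and differ in muscle content, and a search over so many genes finds high values, so these are a description with no test. In the lines *Mex3a* had 56.8 ± 2.77 CPM (SD, n = 3) in BNC and 26.5 ± 9.07 CPM (SD, n = 3) in NC lines, opposite to *Spp1* (log2 fold change 1.08, SE 0.25, adjusted p = 0.042), and the other 4 did not pass the test (adjusted p between 0.132 and 0.475). Of these, *Kif18b*, *Bard1*, and *Cdc25c* had log2 fold changes of 0.5, 1, and 0.69, also opposite to *Spp1*. *Tes* alone had a fold change in the direction of *Spp1* (log2 fold change -0.91, SE 0.52), with groups that overlapped. It had 64.5, 65.2, and 226 CPM in BNC lines and 229, 180, and 244 CPM in NC lines.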

How the data were processed

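The authors deposited whole-number counts of reads per Ensembl gene for 6 cell lines and 9 other libraries. Per the methods of the study, single-end reads of poly-A-enriched RNA were mapped to mm10 with TopHat 2.0.12, poorly mapped reads and alignments that were not primary were dropped, and the remainder was counted with HTSeq. The strand setting is not given in the sources used here. Lines were assigned by the line names in the supplementary table. The 9 remaining columns were taken as the tumors because 15 columns match 15 RNA samples. The 14 columns of DNA log2 values and the chromatin profiles were not used here.

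Members and lists were chosen with earlier results of these data known. Symbols were found for 98.5% of identifiers. BNC and NC lines were compared in R 4.3.3 with edgeR 4.0.16 (TMM, filterByExpr with a minimum count of 10, glmQLFit and glmQLFTest, no covariates, Benjamini-Hochberg over 12376 genes), and the SE is the log2 fold change divided by the square root of F. DESeq2 1.42.0, the tool of the authors, was an alternative. No line is stated to be a separate animal, so p-values measure the spread between these cultures. Relations over tumors were two-sided exact permutation tests over all pairings, on log2(CPM + 1). Positions, exon lengths, and promoters are from GRCm38 (GENCODE M21 and RefSeq). Both tools were also tested on simulated data. Named genes were the members, the called genes of each list (at most 4), the most abundant gene of each list and marker list, the 5 genes most like *Spp1*, *Bap1*, and *Nf2*, and any other gene was named after its values were seen. The alternatives were another scaling, 2 filters, DESeq2, 2 replicate blocks, the prefix of the library names, summed close pairs, and leaving out each line.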

Additional observations from a re-analysis of the deposited data

How the results depend on the processing

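The log2 fold change of *Spp1* (-3.48) lay between -3.63 and -3.36 under all 14 alternatives, including each line left out. The number of members called (1) was 2 with DESeq2, 0 with close pairs summed, and 0 with a replicate block in which JB97 was numbered 2. Leaving out each line gave 1 to 4, with 3 without JB97 and 4 without JB87. Of all genes, 14.2% were called in the main fit, 19.2% with DESeq2, 25.4% without JB97, and 51.9% without JB87. With close pairs summed and with that block, 0 of all genes were called. The number of list genes called (8) was 15 with DESeq2, 0 with close pairs summed, and 0 with the library prefix as a covariate. It was 0 with the replicate block under either numbering of JB97 (2 or 3), and leaving out each line gave 0 to 24, with 13 without JB97. Of all genes, 2.2% were called with the prefix and 3.75% with the block in which JB97 was numbered 3. Over all genes 1761 were called, 0 with close pairs summed (1508 genes then had an unadjusted p under 0.05), and 15 to 6800 with a line left out. The numbers did not pair the lines, with correlations of deviations of 0.101, -0.069, and -0.077. Of the members, *Efemp1* and *Has2* moved most, to -8.25 without JB97 and 5.77 without JB87. The macrophage relations gave 0 of 6 under each setting, and the median *Spp1* level of the tumors was 729 CPM by library size in place of 665 CPM. With 2 near-alike pairs among 6 lines, the spread between lines is known from few independent cultures, and with 9 tumors of unknown genotype, muscle or lung markers in several and 1 shared name prefix, tumor levels are a description. *Muc16* was not analysed here, and *Thbs2* had too few reads in the lines to compare. The causes of these changes were not tested.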
